A study of Mus musculus with 8 samples.

Results

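The dependence of the c-Src effect on Csk was measured for mouse microRNAs as a difference of 2 effects. The first effect is the change that c-Src makes in cells without Csk (c-Src minus mock), and the second is the change that c-Src makes in cells given Csk back (Csk+c-Src minus Csk). Their difference, called the interaction here, is on the log2 scale and is above 0 where c-Src shifted a microRNA upward more, or downward less, in the absence of Csk. All 8 arrays of the study enter it. Of 611 mouse microRNAs on the array, 243 were tested because both arrays of 1 group or more detected them. The other 368 were not tested, 351 of which were detected on no array.

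All cells were mouse embryonic fibroblasts of the C57BL/6J strain that lack Csk (Csk-/-), and the 4 groups received an empty vector (called mock), a c-Src vector, Csk and c-Src at once (Csk+c-Src), or Csk by itself. Each group had 2 arrays, labelled as biological replicates, while the design text speaks of samples run in duplicate. It is not stated whether the replicates came from separate transfections, so p-values measure the spread between these samples, which may be technical. The Csk deletion is shared by every group, so "with Csk" means cells with re-introduced Csk. The arrays hold no probe for the 2 transfected genes, and the labels could not be checked against them.

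Csk is a tyrosine kinase that phosphorylates the C-terminal tail of Src family kinases and thereby closes them into an inactive form. Without Csk this brake is missing, and c-Src in such fibroblasts is the setting of a classical model of transformation. A mature microRNA finds its target messenger RNAs mainly through the seed, which is bases 2 to 8 from its 5′ end, so microRNAs with the same seed share many predicted targets although they may come from different genes. A star after a name marks the less abundant arm of the hairpin in the older naming that the array uses.

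The sequences below are shown because they allow members of one seed family, or of one gene cluster, to be compared, whether their interactions had the same sign (miR-146a and miR-146b) or opposite signs (miR-10a and miR-10b). They are RefSeq sequences on GRCm38.p6, written 5′ to 3′ with the seed in capitals, and an entry was found for all 19 array names that were looked up. miR-10a (chr11:96317186-96317208, plus strand) and miR-10b (chr2:74726074-74726096, plus strand) lie in different Hox clusters and have the same seed. Counted from the 5′ end of miR-10a, the pair differs by the single substitution U12A.
miR-10a: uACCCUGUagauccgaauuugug
miR-10b: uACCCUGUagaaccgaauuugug
miR-146a (chr11:43374435-43374456, minus strand) and miR-146b (chr19:46342790-46342811, plus strand) have the same seed and differ by G18A and U21C, counted from the 5′ end of miR-146a.
miR-146a: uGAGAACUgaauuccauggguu
miR-146b: uGAGAACUgaauuccauaggcu
miR-721 (chr5:136375777-136375797, minus strand) and miR-130b (chr16:17124071-17124092, minus strand) share a seed.
miR-721: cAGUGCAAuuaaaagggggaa
miR-130b: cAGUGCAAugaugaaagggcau
The seed of miR-15 and miR-16 is carried by miR-497 (chr11:70234730-70234751, plus strand), miR-195 (chr11:70235062-70235082, plus strand) and the X-linked miR-322 (chrX:53054306-53054327, minus strand). miR-503 (chrX:53054027-53054049, minus strand), the neighbour of miR-322, departs from it within the seed by A8G, counted from the 5′ end of miR-322. miR-542-3p (chrX:53049415-53049436, minus strand) belongs to the same X-linked cluster and has another seed.
miR-497: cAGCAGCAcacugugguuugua
miR-195: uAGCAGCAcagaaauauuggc
miR-322: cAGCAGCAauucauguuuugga
miR-503: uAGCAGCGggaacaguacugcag
miR-542-3p: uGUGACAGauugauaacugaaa

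Levels below are log2 of the signal after each array was divided by the 75th percentile of the microRNAs detected on all 8 arrays, with a floor at -5.69. Each array detected 201 to 250 mouse microRNAs. The lowest number was on Csk array 2, where 696 spots were excluded; elsewhere the number was 270 to 351. Across the tested microRNAs, which are not independent replicates, r was 0.9958 to 0.9985 between the arrays of a group and 0.9356 to 0.9896 between groups. Of 8 fibroblast microRNAs, 7 were detected, with a summed scaled signal of 37.8 to 56.1 on an array, while miR-145 was detected on none. Of 5 epithelial microRNAs 1 was detected on any array (summed scaled signal at most 0.046), of 2 keratinocyte microRNAs none (at most 0.00985), and of 7 microRNAs of blood cells 1 (0.0305 to 0.0546). Muscle (2 of 4 detected on any array), endothelial (2 of 2), neural (2 of 4) and embryonic stem cell (2 of 12) microRNAs summed to at most 0.102 on any array. One slide held all arrays and a column of it held 1 group, so group and column cannot be told apart. The slide's 2 rows each held 1 array of every group.

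The interaction passed an adjusted p of 0.05 for 123 of the 243 microRNAs (50.6%), 90 of them above 0 (37%) and 33 below 0 (13.6%). These are Benjamini-Hochberg values over the 243 microRNAs from limma, with 2 arrays per group, and 141 passed an unadjusted p of 0.05. For all 123 the array differences without Csk did not overlap those with Csk, which held for 167 of the 243 (68.7%). Where they do not overlap, the sign must be the same in both slide rows, so that agreement is no further check. The interaction was at least 2-fold in 34, of which 21 were above 0 and 13 below. The median over all 243 was 0.17 (interquartile range -0.18 to 0.51), and it moved between -0.13 and 0.37 with the scaling of the arrays, so a small interaction is to be read against that shift. Scaled to the 75th percentile over all mouse microRNAs, 34 were above 0 and 69 below, with quantile normalization 63 and 58, with a scaling set chosen without Csk array 2 65 and 44, and with unscaled signals 114 and 31. Without Csk array 2, where the median was 0, it was 54 and 50, and without Csk+c-Src array 2 it was 51 and 29. Over the main scaling and 5 others, the sign held for 99 of the 123 and sign and call together for 55, and 48 of these also kept the call when any array was left out. After normexp background correction with an offset of 50, which compresses low signals, 87 kept their sign and 1, miR-199b*, kept its call.

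Among the 123, the signs of the 2 effects of c-Src differed in 58, where an effect of exactly 0, as with levels at the floor, counts as differing. Of these, 44 had an interaction above 0. In 43 of them the effect was above 0 without Csk and not above 0 with it, and in the rest it was 0 without Csk. The other 14 had an interaction below 0, and none of them had an effect above 0 without Csk. In 44 both effects had the same sign and the one with Csk was larger, and in 21 the one without Csk was larger. Taken by size alone, the effect of c-Src was larger with Csk in 89 of the 123 and larger without Csk in 34, and over all 243 in 139 and 98. The median absolute effect over all 243 was 0.24 without Csk and 0.37 with it, and the correlation of both effects across the 243 microRNAs was 0.296, given as a description.

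**Figure D1:**
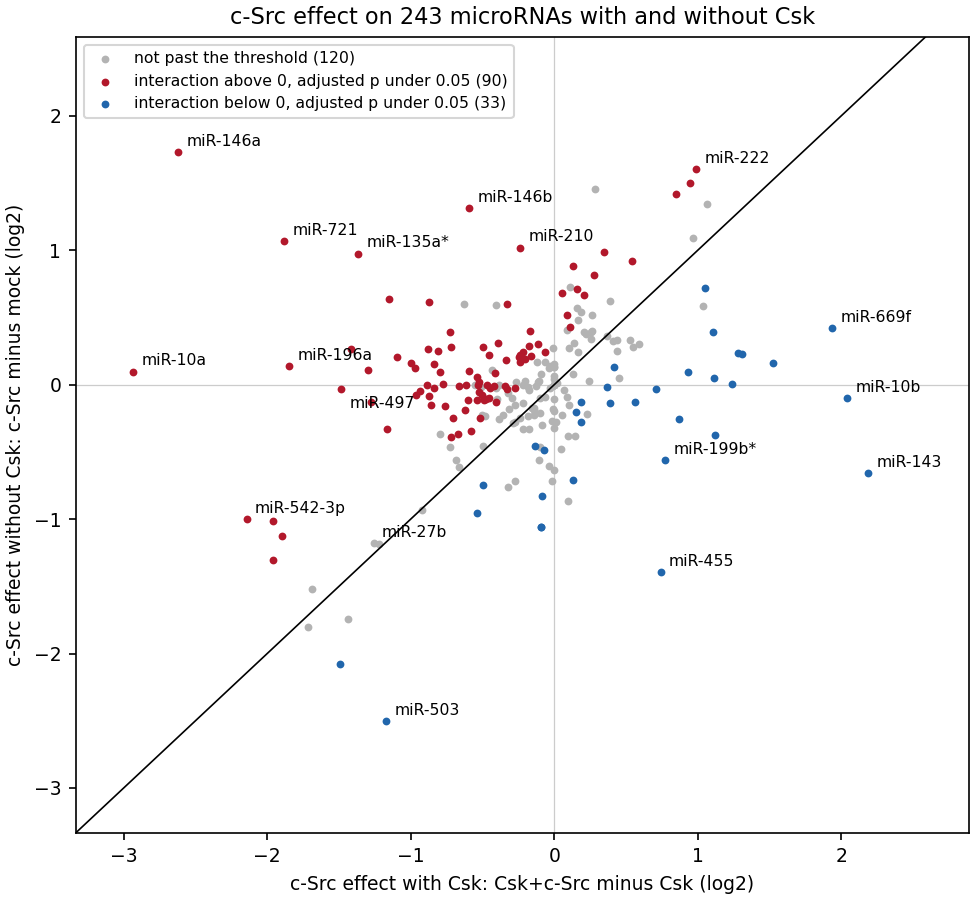
The c-Src effect without Csk (vertical axis, log2) is plotted against that with Csk (horizontal axis, log2) for 243 microRNAs, 1 point each. The diagonal marks equal effects, the 90 red points above it and 33 blue points below it passed the adjusted p of 0.05, and miR-146a, miR-10a, miR-143 and miR-10b lie far from it.

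The largest interaction was that of miR-146a, a microRNA induced by NF-kappaB signalling that targets adaptors of innate immune receptors. Its level was -4.17 and -4.00 on the mock arrays, -2.40 and -2.31 with c-Src, -3.11 and -3.04 with Csk, and at the floor of -5.69 on both Csk+c-Src arrays, where it was not detected. It was thus highest with c-Src alone and lowest with Csk+c-Src, and no groups overlapped. The c-Src effect was 1.73 without Csk and -2.62 with Csk, an interaction of at least 4.35 (SE 0.09, adjusted p = 1.77e-05), which is a ratio of at least 20.4-fold. Its relative miR-146b, from another chromosome, was at -3.20 and -3.15 in mock, -1.90 and -1.82 with c-Src, -2.34 and -2.28 with Csk, and -2.91 and -2.89 with Csk+c-Src. It followed the same order except that mock was lowest, and the interaction was 1.91 (SE 0.06, adjusted p = 2.19e-05). Both tested members of this family therefore had an effect of c-Src that was upward without Csk and downward with Csk. The interactions of both were called under each of the scalings, and with each array left out where tested.

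The Hox-linked microRNAs split by gene. miR-10a, encoded in the Hoxb cluster, was at -3.14 and -2.93 in mock, -2.97 and -2.91 with c-Src, -2.35 and -2.24 with Csk, and -5.17 and -5.29 with Csk+c-Src. Mock and c-Src overlapped, while Csk was highest and Csk+c-Src lowest, so the difference of effects lay in the cells with Csk, where c-Src changed the level by -2.93 against 0.10 without Csk (interaction 3.03, SE 0.13, adjusted p = 5.35e-05). miR-10b, encoded in the Hoxd cluster, was at -3.33 and -3.24 in mock, -3.43 and -3.34 with c-Src, -4.94 on both Csk arrays, and -2.95 and -2.84 with Csk+c-Src. Mock and c-Src again lay close together, but Csk was lowest and Csk+c-Src highest, the reverse of miR-10a. The interaction was -2.14 (SE 0.08, adjusted p = 3.89e-05), from an effect of -0.10 without Csk and 2.04 with it. As the sequences above show, these opposite interactions belong to microRNAs with 1 seed.

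miR-196a, which has genes in the Hox clusters and targets Hox messenger RNAs, was at -3.93 and -3.97 in mock, -3.79 and -3.83 with c-Src, -3.56 and -3.35 with Csk, and -5.43 and -5.18 with Csk+c-Src. It was lowest with Csk+c-Src, like miR-10a, with an interaction of 1.99 (SE 0.15, adjusted p = 0.000453). At a floor 4 times higher, which covers its levels in every group but Csk, the interaction of miR-196a was 0.23 (adjusted p = 0.16). Of the 4 tested members of the miR-10 and miR-196 list, 2 passed above 0 and 1 below, beside 37% and 13.6% of all tested. The list's median was 1.06 against 0.17 over all tested.

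**Figure D2:**
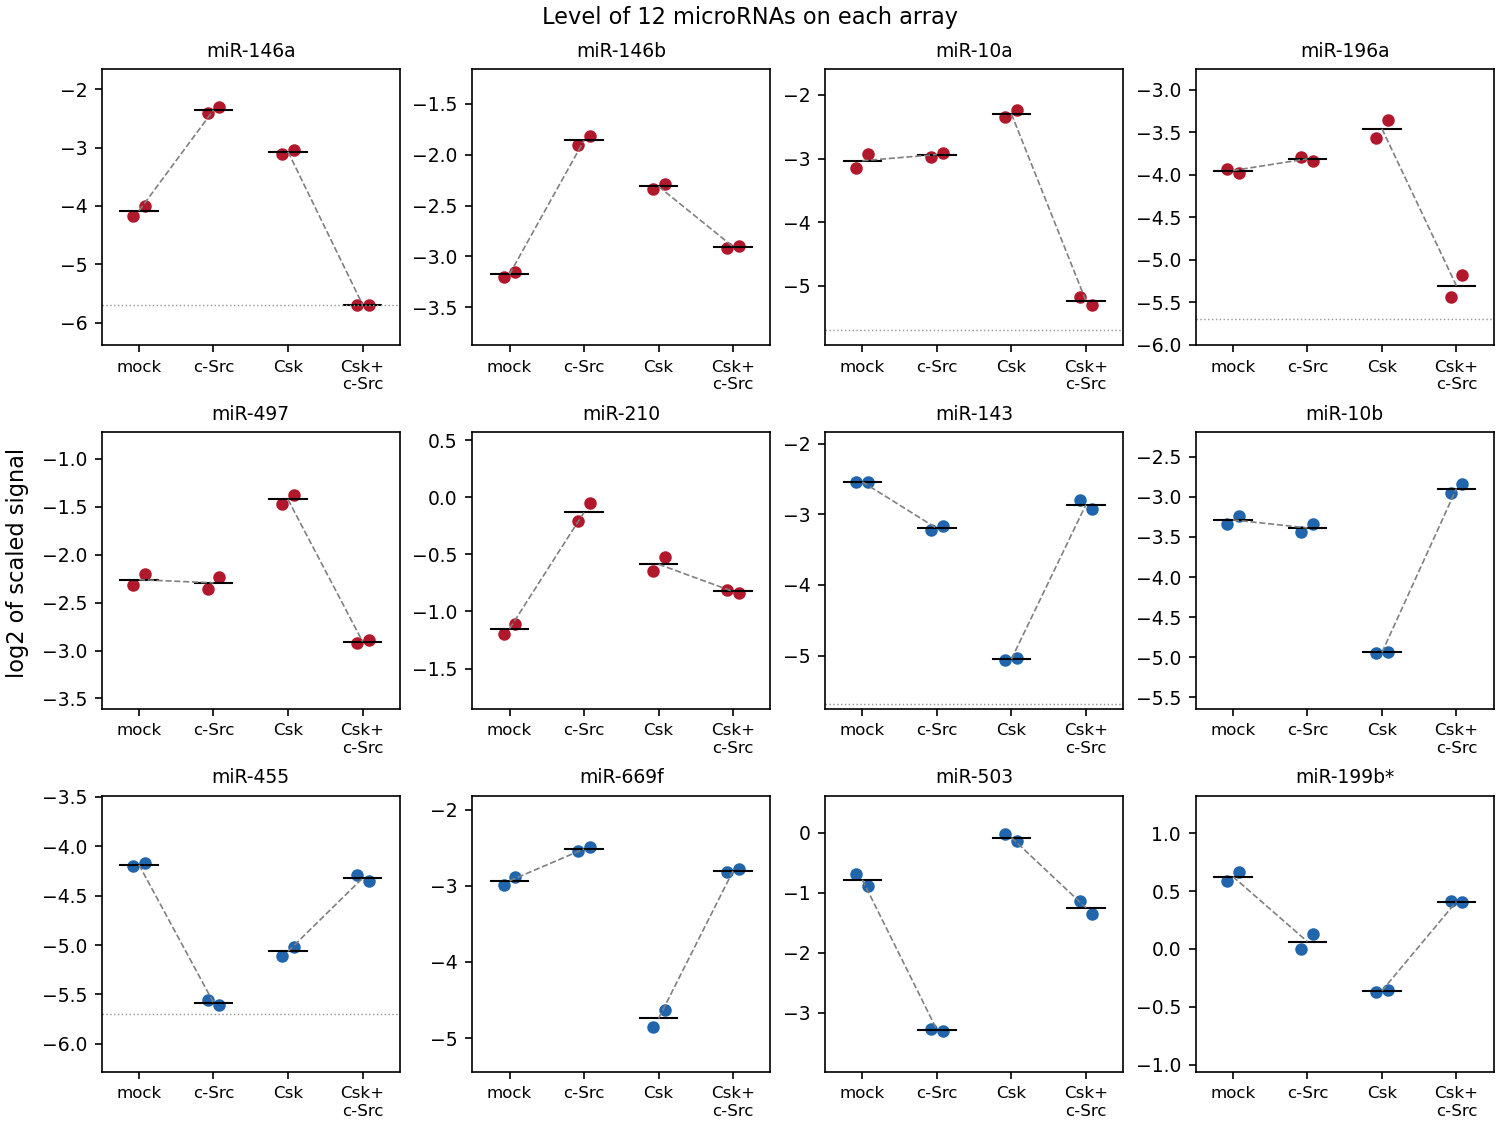
The log2 scaled signal (vertical axes, own range in each panel) of 12 microRNAs is shown on each of the 8 arrays, with points for arrays, a bar for the mean of each group of 2, and dashed lines for the c-Src effect without Csk (left pair) and with Csk (right pair). Red panels have interactions above 0 and blue ones below, and the dotted line marks the floor of -5.69 where it falls within a panel.

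miR-143 is transcribed with miR-145 in mesenchymal cells and had the lowest interaction. It was at -2.54 and -2.55 in mock, -3.23 and -3.17 with c-Src, -5.06 and -5.04 with Csk (detected on 1 of these 2 arrays), and -2.80 and -2.93 with Csk+c-Src. Csk cells stood far below the 3 other groups. The c-Src effect was -0.66 without Csk and 2.19 with it, giving -2.85 (SE 0.07, adjusted p = 2.03e-05). Its partner miR-145 was not detected and could not be tested.

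miR-455, encoded in an intron of the collagen gene Col27a1, was at -4.20 and -4.17 in mock, -5.55 and -5.61 with c-Src, -5.11 and -5.02 with Csk, and -4.29 and -4.35 with Csk+c-Src. Either gene alone went with a low level, whereas both together lay close to mock. The interaction was -2.14 (SE 0.07, adjusted p = 2.19e-05), and at a floor 4 times higher, which covers all its levels, it was 0.00. The array's miR-455 probe name does not give the arm.

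The 9 tested members of the X-linked cluster had c-Src effects below 0 both with and without Csk, from -0.998 to -2.50 without and from -1.17 to -2.14 with. Their interactions differed in sign, with miR-503 below 0 and miR-542 and miR-450a above it, and no test of position in the cluster was run. In gene order along the minus strand the cluster opens with miR-322 and miR-503, goes on to miR-351 and miR-542, and ends with a pair of miR-450a genes and miR-450b. Near the start, miR-503, which restrains cell cycle genes such as cyclin D1, was at -0.68 and -0.88 in mock, -3.273 and -3.298 with c-Src, -0.01 and -0.14 with Csk, and -1.14 and -1.35 with Csk+c-Src. The effect was larger without Csk (-2.50) than with it (-1.17), an interaction of -1.33 (SE 0.14, adjusted p = 0.00135). miR-322* also passed, at -0.59 (SE 0.05, adjusted p = 0.000481), but its c-Src arrays lay at -5.59 and -5.62, close to the floor, and it was 0.072 (adjusted p = 0.322) with the mean of log2 over probes and 1.32 (adjusted p = 0.000125) at a floor 4 times higher.

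miR-322 itself, the brightest of the cluster, had -0.31 (SE 0.13, adjusted p = 0.0972) and miR-351 -0.09 (SE 0.13, adjusted p = 0.599), neither passing. Without Csk array 2 miR-322 passed at -0.60 (adjusted p = 0.0143), and with the percentile over all mouse microRNAs at -0.72 (adjusted p = 0.0103). At a floor 4 times higher miR-351 was at 0.81 (adjusted p = 0.00625), and 7 of the 9 members passed above 0 and 1 below. Further along, miR-542-3p was at -3.14 and -3.02 in mock, -4.09 and -4.07 with c-Src, -1.48 and -1.26 with Csk, and -3.54 and -3.49 with Csk+c-Src. Here the effect was smaller without Csk (-0.998) than with it (-2.14), an interaction of 1.15 (SE 0.12, adjusted p = 0.0012). The opposite arm miR-542-5p had 0.94 (adjusted p = 0.00347), miR-450a-5p 0.77 (adjusted p = 0.000702) and miR-450b-3p 0.66 (adjusted p = 0.0126), while miR-450b-5p had 0.17 (adjusted p = 0.643). The call of miR-450b-3p ended without c-Src array 2 (0.63, adjusted p = 0.067) and without Csk array 2 (0.41, adjusted p = 0.17). Over the list, 4 of 9 members passed above 0 and 2 below, beside 37% and 13.6% of all tested, with a median of 0.17, equal to that of all tested. The signs of miR-503 and miR-542-3p held under each alternative tried. Under normexp miR-542-5p and miR-450b-3p were at -0.24 and -0.21, without a call.

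**Figure D3:**
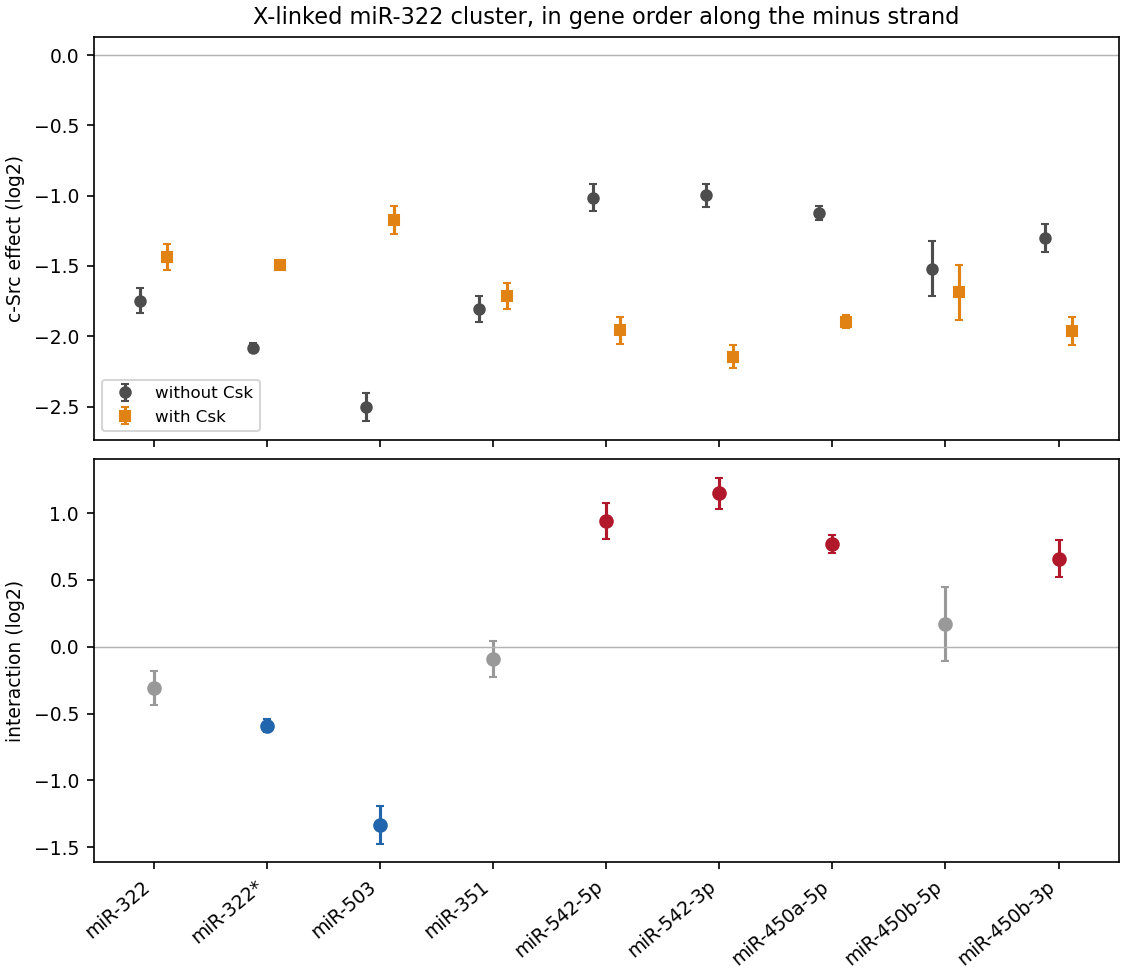
The upper panel shows the c-Src effect (log2, with its standard error from limma, 2 arrays per group) without Csk (circles) and with Csk (squares) for the 9 tested members of the X-linked cluster in gene order, and the lower panel shows the interaction with its standard error. All effects lie below 0, and the interactions of miR-322* and miR-503 (blue) lie below 0 while those of miR-542-5p, miR-542-3p, miR-450a-5p and miR-450b-3p (red) lie above it, with grey for those that did not pass.

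The more abundant arms of the miR-15 and miR-16 list restrain cyclins and the anti-apoptotic factor Bcl2. All 6 tested members, the star arm miR-15b* among them, were above 0 and past the threshold. Over all tested microRNAs 37% passed above 0, and the median was 0.17 against 0.53 for the list. The neighbouring miR-497 and miR-195 led the list. miR-497 was at -2.32 and -2.20 in mock, -2.35 and -2.23 with c-Src, -1.47 and -1.37 with Csk, and -2.92 and -2.89 with Csk+c-Src. Mock and c-Src overlapped, Csk was highest and Csk+c-Src lowest. The interaction was 1.45 (SE 0.09, adjusted p = 0.000267), and miR-195 had 1.41 (SE 0.09, adjusted p = 0.000267). miR-16, among the brightest members, had 0.59 (adjusted p = 0.00215), miR-15b 0.47, miR-15a 0.46 and miR-15b* 0.41. These smaller values depended on the scaling. With the 75th percentile over all mouse microRNAs 2 of the 6 passed above 0. With quantile normalization 3 passed above 0, miR-15b was at -0.36 (adjusted p = 0.00794) and miR-16 at -0.07 (adjusted p = 0.608). The number above 0 was 3 without mock array 2 or without Csk+c-Src array 2. Without Csk array 2, 5 passed, with miR-15b at 0.22 (adjusted p = 0.164), miR-15a at 0.21 (adjusted p = 0.0409) and miR-15b* at 0.20 (adjusted p = 0.00381).

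The more abundant arms of the miR-30 list are known for restraining mesenchymal and differentiation programmes. Star arms included, the list passed above 0 in 8 of 9 tested members, beside 37% of all tested. Its median of 0.60, against 0.17 over all tested, stayed between 0.21 and 0.79 over the scalings. miR-30c was at -0.16 and -0.11 in mock, -0.16 and -0.11 with c-Src, 0.25 and 0.26 with Csk, and -0.60 and -0.67 with Csk+c-Src. Mock and c-Src did not separate, and the interaction of 0.88 (SE 0.05, adjusted p = 0.000211) came from an effect of -0.89 with Csk. miR-30a* had 0.89, miR-30e* 0.77 and miR-30b 0.61 in the same direction. With the percentile over all mouse microRNAs 3 of the 9 passed, and without c-Src array 2 it was 5. The call of miR-30a* ended without Csk array 2 (0.57, adjusted p = 0.11) and without c-Src array 2 (0.85, adjusted p = 0.052).

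The more abundant arms of the miR-29 list target collagens and other matrix genes. Star arms included, the list differed in form. In the main scaling the effect of c-Src was upward on both backgrounds and larger without Csk. miR-29c was at -0.43 and -0.41 in mock, 0.36 and 0.44 with c-Src, -0.60 and -0.68 with Csk, and -0.31 and -0.41 with Csk+c-Src. It was highest with c-Src alone, with effects of 0.82 and 0.28 and an interaction of 0.54 (SE 0.07, adjusted p = 0.00303). Of 5 tested members 4 passed above 0 (median 0.54), beside 37% of all tested (median 0.17). The values were 0.38 for miR-29a and 0.63 for miR-29b*. miR-29b, at 0.13, did not pass and ran from -0.28 to 0.32 over the scalings. miR-29a* passed at 0.75, but it lay at the floor on both Csk arrays, so this is an upper bound. It was 0.33 (adjusted p = 0.158) with unscaled signals, 0.13 (adjusted p = 0.0948) with the mean of log2 over probes and 0.00 at a floor 4 times higher. Without Csk array 2 miR-29b* was at 0.31 (adjusted p = 0.174) and miR-29a at 0.17 (adjusted p = 0.0108). None of the 5 passed with the percentile over all mouse microRNAs, where miR-29a was at -0.027. Without mock array 2, Csk+c-Src array 2 or Csk array 2, 2 of the 5 passed.

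miR-221 and miR-222, a pair on the X chromosome that restrains the cell cycle inhibitor p27, had the same form and were chosen after their values were seen. miR-222 was at -1.51 and -1.62 in mock, 0.036 and 0.043 with c-Src, -2.55 and -2.71 with Csk, and -1.54 and -1.74 with Csk+c-Src. Its effect was 1.60 without Csk and 0.99 with it (interaction 0.61, SE 0.13, adjusted p = 0.0123), and miR-221 had 1.496 and 0.95 (interaction 0.55, SE 0.07, adjusted p = 0.00297). With the percentile over all mouse microRNAs neither passed (0.20 and 0.14). miR-222 also did not pass with the median of detected microRNAs as scaling (0.50, adjusted p = 0.055) or with quantile normalization (0.38, adjusted p = 0.058). Without a detection filter its adjusted p was 0.069. The call of miR-222 also ended without mock array 2 (0.54, adjusted p = 0.059) and without c-Src array 2 (0.59, adjusted p = 0.062).

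Members of the miR-199 and miR-214 list did not all share a direction. miR-214, encoded with miR-199a in fibroblasts, had 0.89 (SE 0.11, adjusted p = 0.00193), its other arm miR-214* at least 1.16 (adjusted p = 0.00135) and miR-199a-5p 0.81 (SE 0.05, adjusted p = 0.000252). Against these, miR-199b*, from another gene, was at 0.58 and 0.67 in mock, -0.0015 and 0.13 with c-Src, -0.37 and -0.35 with Csk, and 0.42 and 0.40 with Csk+c-Src. Like miR-455 it was low with either gene alone and close to mock with both, at -1.33 (SE 0.07, adjusted p = 0.000193). miR-199a-3p had -0.26 and did not pass (adjusted p = 0.0844), but without Csk array 2 it passed at -0.53 (adjusted p = 0.00792), and it passed between -0.66 and -0.37 under 4 of the other scalings. Mature miR-199a-3p has the same sequence as the 3′ arm of miR-199b, so this probe reads more than 1 gene. Under normexp miR-214* was at -0.49, without a call. Its levels lay at the floor on both Csk+c-Src arrays, and at a floor 4 times higher its interaction was 0.00. The list's median was 0.81, with 3 members above 0 and 1 below, or 2 below where miR-199a-3p passed. Over all tested, 37% passed above 0 and 13.6% below.

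The neighbours miR-301b and miR-130b, which share a seed with miR-721, both lay below 0. miR-130b was at -1.71 and -1.58 in mock, -1.32 and -1.20 with c-Src, -2.53 and -2.42 with Csk, and -1.36 and -1.37 with Csk+c-Src. Csk was lowest, and the interaction was -0.72 (SE 0.10, adjusted p = 0.00303), with -1.06 (SE 0.15, adjusted p = 0.00315) for miR-301b. miR-721 was at the floor in mock and Csk+c-Src, -4.72 and -4.53 with c-Src, and -3.89 and -3.73 with Csk. It was detected with either gene alone and with neither or both it was not, the reverse of miR-455, for an interaction of at least 2.95 (adjusted p = 3.89e-05). It was 0.00 at a floor 4 times higher and -0.26 under normexp, without a call. The miR-130 and miR-301 list had 2 of 5 tested members passing below 0 and none above, beside 13.6% and 37% of all tested. Its median was -0.45.

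The Sfmbt2 cluster, a large repeat-derived cluster in an intron of the imprinted gene Sfmbt2, had 6 of 15 tested members passing below 0. None passed above, beside 13.6% below and 37% above over all tested microRNAs. The list's median of -0.20 lay between -1.72 and -0.08 over the scalings. Several members, such as miR-467c and miR-467a*, lay under the floor on both Csk arrays, so the median depends on the floor. miR-669f was at -2.99 and -2.88 in mock, -2.55 and -2.49 with c-Src, -4.85 and -4.63 with Csk, and -2.82 and -2.79 with Csk+c-Src. Only Csk cells stood low, and the interaction was -1.52 (SE 0.12, adjusted p = 0.000453). miR-467b, miR-669a and miR-467a were not detected in Csk cells, so their interactions are bounds, at most -1.36 (adjusted p = 2.19e-05), -1.05 (adjusted p = 2.75e-05) and -0.84 (adjusted p = 0.000338). With a floor 4 times higher miR-467b was at 0.075 (adjusted p = 0.0213), and miR-669a and miR-467a at 0.00. With the median of detected microRNAs as scaling, 2 of the 15 members passed above 0 and 5 below. At a floor 4 times higher it was 1 above and 1 below. Where detection on all arrays was required, only 1 member was tested, and it passed below 0. Members of this cluster have near-identical sequences, which the probes may not separate.

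**Figure D4:**
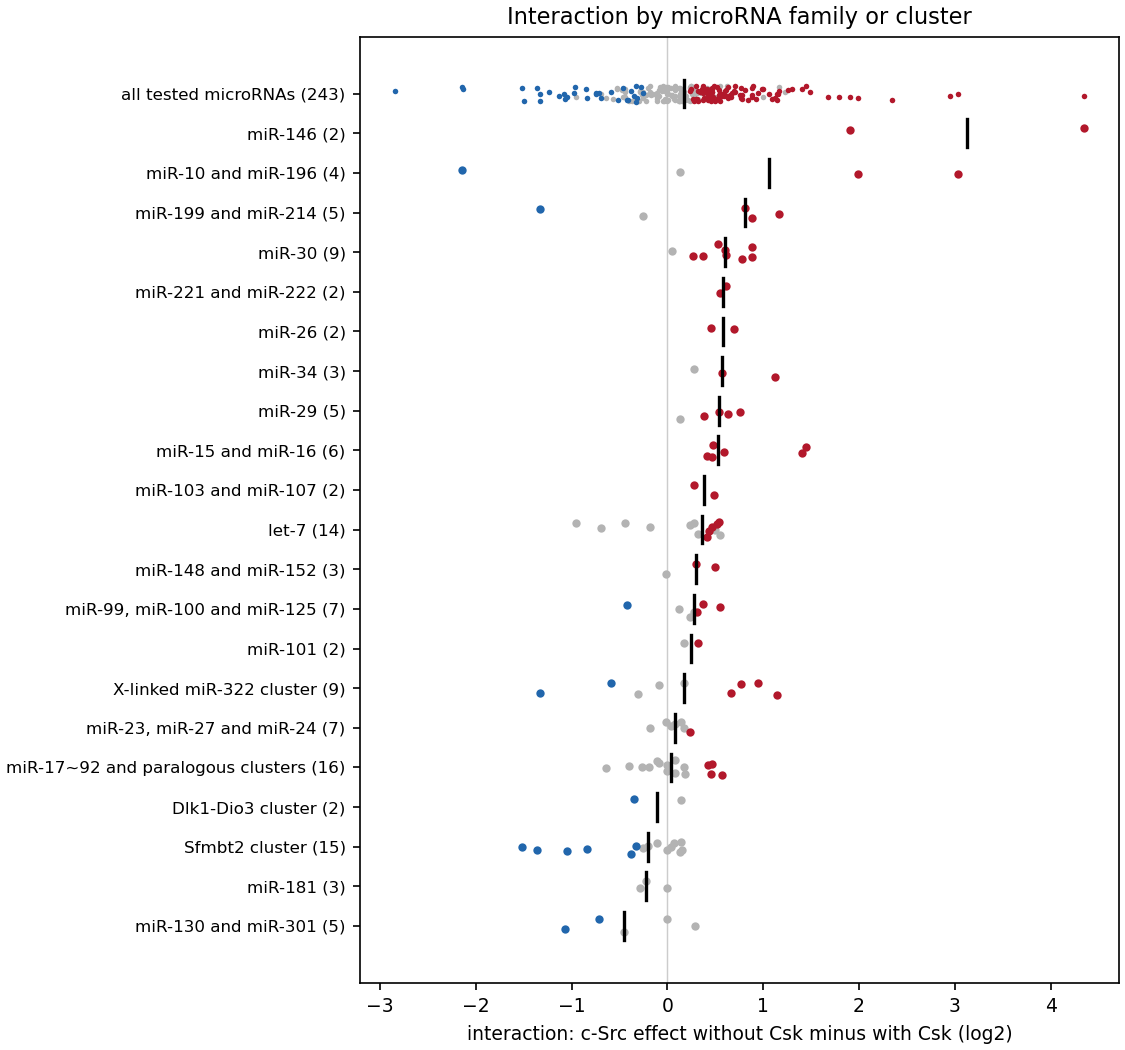
Interaction (horizontal axis, log2) of the tested members of each microRNA list with at least 2 of them, with the number in parentheses, and of all 243 tested microRNAs in the top row. Points in red passed above 0, those in blue below 0 and those in grey did not pass, and black bars mark medians, which run from -0.45 (miR-130 and miR-301) to 3.13 (miR-146) against 0.17 for all.

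Among the other large values above 0, miR-210, the microRNA most closely tied to hypoxia signalling, was at -1.20 and -1.11 in mock, -0.21 and -0.05 with c-Src, -0.65 and -0.52 with Csk, and -0.81 and -0.84 with Csk+c-Src. It was highest with c-Src alone, and its effect of 1.02 without Csk against -0.24 with Csk gave 1.26 (SE 0.10, adjusted p = 0.000526). Both arms of the miR-872 hairpin passed, at 1.79 (SE 0.16, adjusted p = 0.000702) and 1.48 for the star arm (SE 0.28, adjusted p = 0.00848), with effects of 0.64 and 0.61 without Csk and -1.15 and -0.87 with it. The star arm lay at the floor on both Csk+c-Src arrays, so its 1.48 is a lower bound. miR-680 had 1.68 (adjusted p = 0.000475), miR-126-3p, a microRNA of endothelial cells, 1.30 (adjusted p = 0.000267), and miR-135a* at least 2.34 (adjusted p = 0.000508). The levels of miR-126-3p were -4.66 to -3.53, and its part in any other cell type was not tested. Under normexp miR-680 was at -0.22, miR-126-3p at -0.13, miR-872* at -0.44, miR-196a at -0.26 and miR-135a* at -0.31, all without a call.

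miR-34a, a target of p53, had effects of 0.39 without Csk and -0.73 with it, and an interaction of 1.12 (SE 0.13, adjusted p = 0.00165). Its relatives miR-34c and miR-34b-5p were not detected in Csk cells, so their effects with Csk are lower bounds and their interactions of 0.57 (adjusted p = 0.00933) and 0.28 (adjusted p = 0.155) could be smaller or below 0. In the unscaled table miR-34c was at -1.65 (adjusted p = 0.000364).

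On the negative side, the X-linked neighbours miR-421 and miR-374 had interactions of -1.49 (SE 0.11, adjusted p = 0.000453) and of -1.23 for the second (SE 0.06, adjusted p = 0.000117). miR-374 was at -2.08 and -2.04 in mock, -2.07 and -2.03 with c-Src, -2.97 and -3.03 with Csk, and -1.72 and -1.81 with Csk+c-Src, so that mock and c-Src overlapped and Csk was lowest. The levels of miR-421 and of miR-219 (-1.13, adjusted p = 0.000475) were at the floor on both Csk arrays, so these interactions are upper bounds. miR-421, miR-219 and miR-21*, the last with -1.08 (adjusted p = 0.00125), were weak signals that lay under a floor 4 times higher. miR-21* was the star arm of miR-21, the brightest of the named microRNAs, whose own levels were 4.79 and 4.95 in mock, 5.32 and 5.50 with c-Src, 4.80 and 5.06 with Csk, and 5.09 and 5.15 with Csk+c-Src. The interaction of miR-21 was 0.35 (SE 0.16) and did not pass (adjusted p = 0.123). In the main scaling the arms thus had values of opposite sign, of which that of the star arm passed. Over the scalings miR-21 ran from -0.06 to 0.54, so its sign is not settled.

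In 2 hairpins chosen after their values were seen, both arms passed below 0. miR-574-3p and miR-574-5p had -0.97 (adjusted p = 0.00223) and -0.85 (adjusted p = 0.00303), and miR-140 and miR-140*, a pair known from cartilage, -0.69 (adjusted p = 0.0139) and -0.74 (adjusted p = 0.00162). miR-574-3p was at 0.07 (adjusted p = 0.608) with a floor 4 times higher. The call of miR-140 ended without mock array 2 (-0.63) and without Csk+c-Src array 2 (-0.71), each with an adjusted p of 0.086.

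Some microRNAs with a large c-Src effect showed a small interaction or none past the threshold. miR-27b was at 0.96 and 1.08 in mock, -0.20 and -0.11 with c-Src, 2.07 and 2.13 with Csk, and 0.85 and 0.83 with Csk+c-Src. The effects were -1.18 and -1.26, and their difference of 0.08 (SE 0.08, adjusted p = 0.435) did not pass, although it was -0.33 (adjusted p = 0.0475) with the percentile over all mouse microRNAs and -0.32 (adjusted p = 0.0107) with quantile normalization. miR-99a, which targets mTOR, had effects of -0.96 and -0.54 and an interaction of -0.42 (SE 0.05, adjusted p = 0.00253), which ran from -0.83 to -0.23 over the scalings and did not pass with unscaled signals (-0.23, adjusted p = 0.202). miR-125b-5p of the same list had 0.55 (adjusted p = 0.00552), and 0.15 with the percentile over all mouse microRNAs and 0.03 with quantile normalization, neither passing. miR-31 had 0.46 (SE 0.08, adjusted p = 0.00561), from effects of 0.66 and 0.20. It did not pass with the percentile over all mouse microRNAs (0.054, adjusted p = 0.713) or with quantile normalization (0.24, adjusted p = 0.281). Of the 7 tested in the list of miR-23 with its partners miR-27 and miR-24, 1 passed, above 0 (median 0.08). Of the 7 in the list of miR-99 with miR-100 and miR-125, 3 passed above 0 and 1 below (median 0.28). Over all tested microRNAs 37% passed above 0 and 13.6% below. With the percentile over all mouse microRNAs the first list had 4 below 0 and the second 2 below 0, none above in either. Without Csk+c-Src array 2 the second list had none above 0, and without Csk array 2 it had 1, while the first list then had none above and 2 below.

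The let-7 list, whose more abundant arms restrain Ras and Myc, had 14 tested members, star arms included. It was led among the named by let-7a at 0.54 (SE 0.12, adjusted p = 0.0129). Of the 14, 5 passed, all above 0 (median 0.37), a share close to the 37% of all tested microRNAs that passed above 0. That count was not stable, with 0 above 0 and 1 below when Csk array 2 was left out, 0 above when Csk+c-Src array 2 was left out, 1 above without c-Src array 2, and 0 above and 1 below with the percentile over all mouse microRNAs. Of the miR-17~92 list, a group of growth-promoting clusters, 4 of 16 passed, all above 0 (median 0.04), which is below that share. They included miR-25 at 0.57 (adjusted p = 0.000823), miR-106b at 0.46 (adjusted p = 0.00921) and miR-93 at 0.45 (adjusted p = 0.00349), which come from 1 gene cluster. With the percentile over all mouse microRNAs the miR-17~92 list had 0 above 0 and 6 below, without Csk array 2 it had 2 above and 4 below, and without mock array 2 or Csk+c-Src array 2 it had 1 above. Both miR-26 and both miR-103 and miR-107 members passed above 0, as did 2 of 3 in the miR-148 and miR-152 list and 1 of 2 in the miR-101 list. With 37% of all tested above 0, counts in lists this small carry little information. Without Csk array 2 these last lists had 1 of 2 for miR-103 and miR-107, 1 above and 1 below for miR-148 and miR-152, and none for miR-101. Of 2 tested in the Dlk1-Dio3 list 1 passed below 0. That call ended with the median of detected microRNAs as scaling, with quantile normalization and with unscaled signals. It also ended without a detection filter, with a floor 4 times higher, and with some single arrays left out. In the miR-181 list none of 3 passed (miR-181a at -0.29, adjusted p = 0.0501). Of these 3, 2 passed below 0 with the percentile over all mouse microRNAs, with the scaling set chosen without Csk array 2, with quantile normalization, with the scanner's total gene signal and with the replicate block, and without Csk array 2 miR-181a passed at -0.58 (adjusted p = 0.00139).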

How the data were processed

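Total RNA labelled with Cy3 was hybridised to 1-colour Agilent microRNA arrays, 1 per sample. The deposited intensity values came from Agilent Feature Extraction 9.5.3.1, per the file headers, as background-subtracted processed signals per spot. The deposited per-microRNA table, unscaled signals, matched these files. Spots marked as outliers were left out, spots averaged per probe, probes summed per microRNA, and arrays scaled by their 75th percentile among 187 microRNAs found on every array (611.9 to 805.7 signal units). Values under 0.0193 (log2 -5.69) were set to that floor. Group means of the 8 arrays were fitted with limma 3.58.1 (R 4.3.3, 4 residual and 5.09 total degrees of freedom) and the interaction was tested two-sided. With 2 arrays per group, the number of arrays limits precision. Groups that were undetected, or at the floor on both arrays, give bounds.

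Named are the 12 highest and 12 lowest called interactions, microRNAs sharing their seed, hairpin or cluster, up to 4 members per list, and 7 preset microRNAs (miR-21, miR-27b, miR-31, miR-99a, miR-145, miR-210, miR-542-3p). Not all that the rule allows are described. The members, lists and alternatives were chosen with earlier results of these data known. Same-numbered samples did not deviate together throughout (correlations -0.0912 to 0.438), so the numbers were not taken as pairs. The fit was also run on simulated data with normal noise and no scaling or floor step. It therefore cannot speak to how the calls depend on the scaling or the floor. Figures used matplotlib 3.10.9 in Python 3.11.15.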

Additional observations from a re-analysis of the deposited data

Results flagged for a closer look

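For 123 of the 243 tested microRNAs the effect of c-Src differed between cells without Csk and cells with Csk by the test of the difference itself (limma, adjusted p under 0.05), and the named ones are listed here by their interaction on the log2 scale. Below 0, in seed and cluster partners, stood miR-143 at -2.85, miR-10b at -2.14, miR-455 at -2.14, miR-421 at -1.49, miR-374 at -1.23, miR-301b at -1.06, miR-130b at -0.72, miR-503 at -1.33, miR-322* at -0.59 and miR-99a at -0.42. Of the Sfmbt2 cluster, miR-669f stood at -1.52, miR-467b at -1.36, miR-669a at -1.05 and miR-467a at -0.84, the last 3 as upper bounds. Also below 0 were miR-199b* at -1.33, miR-219 at -1.13, miR-21* at -1.08, miR-574-3p at -0.97, miR-574-5p at -0.85, miR-140* at -0.74 and miR-140 at -0.69. The values of miR-421 and miR-219 are upper bounds too, because both Csk arrays lay at the floor.

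Above 0 and past 1 on the log2 scale stood miR-146a at 4.35, miR-721 at 2.95 and miR-135a* at 2.34, these as lower bounds, then miR-10a at 3.03, miR-196a at 1.99, miR-146b at 1.91, miR-872 at 1.79, miR-680 at 1.68, miR-872* at 1.48, miR-497 at 1.45, miR-195 at 1.41, miR-126-3p at 1.30, miR-210 at 1.26, miR-214* at 1.16, miR-542-3p at 1.15 and miR-34a at 1.12. Between 0 and 1 were miR-542-5p at 0.94, miR-30a* at 0.89, miR-214 at 0.89, miR-30c at 0.88, miR-199a-5p at 0.81, miR-30e* at 0.77, miR-450a-5p at 0.77, miR-450b-3p at 0.66, miR-29b* at 0.63, miR-30b at 0.61, miR-222 at 0.61, miR-16 at 0.59, miR-25 at 0.57, miR-125b-5p at 0.55, miR-221 at 0.55, let-7a at 0.54, miR-29c at 0.54, miR-15b at 0.47, miR-15a at 0.46, miR-106b at 0.46, miR-31 at 0.46, miR-93 at 0.45, miR-15b* at 0.41 and miR-29a at 0.38. miR-29a* at 0.75 and miR-34c at 0.57 are upper bounds, because both Csk arrays lay at the floor, so their sign is not settled. The values of miR-872* and miR-214* are lower bounds, because both Csk+c-Src arrays lay at the floor. Of these 63 named microRNAs, 40 kept sign and call under each of 6 scalings and with any 1 array left out.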

How the results depend on the processing

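The scaling moved the balance of the interaction, and the cause was not tested. The number of calls was 123 (90 above 0, 33 below, median 0.169). With the 75th percentile over all mouse microRNAs it was 34 above and 69 below (median -0.132), with quantile normalization 58 below (median 0), and in the unscaled table the median was 0.372. Normexp left 1 call, below 0 (0 above, median -0.313). Without a detection filter the median was 0, and with a floor 4 times higher, which flattens weak signals, it was 0 with 18 below. Leaving out each array gave 80 to 121 calls, 51 to 89 above and 28 to 50 below, and medians of 0 to 0.251. The replicate block gave 141 calls (102 above, 39 below), with correlations between same-numbered arrays that did not pair them. Of 15 lists with at least 3 tested members, 9 had medians above that of all tested microRNAs, and 8 to 12 under the alternatives.

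Listed here are the named values that turned sign with a call in either fit. Under the percentile over all mouse microRNAs they were miR-27b (-0.33) and miR-29a (-0.027). Under quantile normalization they were miR-27b (-0.32), miR-15b (-0.36) and miR-16 (-0.0697). Sign turns without a call in either fit are not listed in full. Examples are miR-21, at -0.056 in its lowest scaling, and miR-34b-5p, at -0.31 under normexp. miR-34c was at -1.65 in the unscaled table and -0.046 with the scanner's total gene signal. Under normexp the sign turned for miR-721 (-0.26), miR-135a* (-0.31), miR-196a (-0.26), miR-680 (-0.22), miR-872* (-0.44), miR-126-3p (-0.13), miR-542-5p (-0.24), miR-450b-3p (-0.21), miR-15b* (-0.37), miR-214* (-0.49), miR-30a* (-0.22), miR-30e* (-0.22), miR-29a* (-0.52), miR-29b* (-0.41) and miR-34c (-0.36). miR-322* was at 0.072 with the mean of log2 over probes. With the higher floor miR-322* was at 1.32, miR-467b at 0.075, miR-351 at 0.81 and miR-574-3p at 0.0701. Over all named values and alternatives, 1338 kept direction and side of the threshold, 142 lost the call, 25 gained one, 27 turned sign with a call in either fit and 14 turned sign without one. Csk array 1's processed signals were rounded, and unrounded ones, an alternative chosen after seeing the data, gave 123 calls. Signal over background limits the weakest microRNAs, whose values depend on the floor.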
